A study of Mus musculus with 7 samples.

Results

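The ribosomal protein genes and their copies were taken from a table of RNA-seq counts over 54838 mouse genes. A row was a member when its symbol began with Rpl or Rps and a number, or was Rplp0, Rplp1, Rplp2 or Rpsa. Of the 403 rows that matched, 10 ribosomal S6 kinase genes and Rpl10l were left out, and 392 members remained. Of these, 77 were the canonical ribosomal protein genes, called parents here, with 31 of the small subunit and 46 of the large subunit. Another 299 members were copies that carry a parent's name, from 60 families, of which 293 are annotated as pseudogenes and 6 as protein-coding. The remaining members were 12 paralogues with their own names, 3 pseudogenes of such like-named genes, and Rps19bp1, which matched by name alone.

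The study sequenced RNA of 7 mouse cultures. The M group holds 3 induced pluripotent stem cell (iPSC) colonies, read from the design text as made from germinal center (GC) B cells that carried the Myc-GFP reporter, although the titles do not spell out M. The GC group holds 3 iPSC colonies made from bulk GC B cells, and the ESC group is a single library of the mouse embryonic stem cell line V6.5, which is long established. For both colony groups, GC B cells (B220+ CD38- Fas+) were sorted from spleens of male mice immunized with SRBC for 9 days. They were kept for 6 days on mouse embryonic fibroblast (MEF) feeders with cytokines, then treated with doxycycline for 10 days to drive reprogramming, and then grown without it for 4 days. Each colony is 1 clone, and cells were pre-plated for 45 min to remove feeders. Neither the age of the mice nor the donor of each colony is stated in the labels. Each edgeR p below sets a difference against the spread among these colonies, to which the single ESC library adds nothing.

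The ribosome is built from a small subunit that reads the mRNA and a large subunit that joins amino acids. Most canonical ribosomal proteins are needed in about the same number as each other. Mammalian genomes carry many processed copies of these genes, made when a spliced mRNA was reverse-transcribed and inserted elsewhere. A processed copy has no introns, differs from its parent at few bases when it is young, and can share whole reads with it. For that reason the sum of a parent and its copies is given below beside each of them.

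The copies that the results turn on show how small the differences are. Rps3a1, which encodes the small-subunit protein S3A, is the parent of Rps3a2 and Rps3a3. The following stretches of 150 bases, the read length given in the design text, were chosen for the most substitutions in Rps3a3. Of stretches with equally many, the first was taken, and it holds the first positions at which the copies differ. The sequences come from GENCODE release M21 on GRCm38 and run 5′ to 3′ on the coding strand. They cover positions 214 to 363 of the Rps3a1 coding sequence, counted from 1 at its first base. Capitals in the parent mark positions at which a copy shown here differs, and capitals in a copy mark its own differing bases.
Rps3a1: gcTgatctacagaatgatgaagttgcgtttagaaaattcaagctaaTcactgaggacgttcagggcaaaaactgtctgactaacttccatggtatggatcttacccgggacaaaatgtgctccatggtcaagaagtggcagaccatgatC
Rps3a3: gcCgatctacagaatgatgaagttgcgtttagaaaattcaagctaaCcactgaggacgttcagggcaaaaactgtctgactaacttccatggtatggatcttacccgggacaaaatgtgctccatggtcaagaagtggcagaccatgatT
Rps3a2: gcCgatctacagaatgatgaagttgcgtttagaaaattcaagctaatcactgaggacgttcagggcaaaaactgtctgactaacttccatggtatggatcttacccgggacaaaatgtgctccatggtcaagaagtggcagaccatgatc

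The Rps3a1 gene lies at chr3:86137940-86142702 on the minus strand. The Rps3a3 stretch lies at chr13:108670816-108670965 on the plus strand, within an intron of Pde4d, and the Rps3a2 stretch at chr14:88123446-88123595 on the minus strand. Over 795 aligned bases of coding sequence, Rps3a3 differed from Rps3a1 by 9 substitutions, namely T216C, T260C, C363T, A427T, T534C, G582T, A660G, C762T and G792A. Over 792 aligned bases, Rps3a2 differed by 4, namely T216C, T534C, A645T and T668C. T216C and T534C were thus common to both copies.

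Rpl34, which encodes the large-subunit protein L34, has a close copy as well, Rpl34-ps1. The 150 bases shown run from position 57 to 206 of the Rpl34 coding sequence, with the same use of capitals.
Rpl34: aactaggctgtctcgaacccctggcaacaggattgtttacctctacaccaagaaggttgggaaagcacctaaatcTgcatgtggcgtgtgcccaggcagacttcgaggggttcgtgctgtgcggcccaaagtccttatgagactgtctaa
Rpl34-ps1: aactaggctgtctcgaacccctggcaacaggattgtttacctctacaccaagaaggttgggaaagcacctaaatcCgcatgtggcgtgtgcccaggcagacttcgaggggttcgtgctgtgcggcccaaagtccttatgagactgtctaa

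The Rpl34 gene lies at chr3:130726831-130730398 on the minus strand, and the Rpl34-ps1 stretch at chr6:71124666-71124815 on the plus strand. Over 354 aligned bases the pair differed by 2 substitutions, T132C and C318G. Reads that cover none of these positions cannot be assigned to the parent or the copy by sequence within the coding region. How the authors counted reads with several matches is not stated in the labels or notes.

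Libraries held 31139508 (ESC) to 35728921 counts (GC colony 1). The members took 7.44% to 7.89% of the counts in M colonies, 7.53% to 8.65% in GC colonies and 9.18% in ESC. Summed levels of 15 pluripotency markers were 7184 to 7752 CPM (counts scaled to library size by TMM) in M colonies, 7337 to 7732 CPM in GC colonies and 10292 CPM in ESC. By an edgeR adjusted p under 0.05, 2 of these 15 were higher in M than in GC colonies and 1 was lower. Of all genes tested, 1.7% were higher and 2.27% lower. Summed levels of 15 B cell and GC B cell markers were 73.2 to 75.4 CPM in M colonies, 73.4 to 82.6 CPM in GC colonies and 93.2 CPM in ESC, and 7 of the 15 were under 1 CPM in every library, with Blk at 0. Summed levels of 15 fibroblast markers were 705 to 905 CPM in M colonies, 646 to 744 CPM in GC colonies and 459 CPM in ESC. The 4 Y-linked genes Ddx3y, Eif2s3y, Kdm5d and Uty summed to 4292, 0 and 0 counts in M colonies 1, 2 and 3, to 3732 to 4699 counts in GC colonies and to 740 counts in ESC, so that results below are also given without M colonies 2 and 3 where these move them. GC colony 3 had lower levels of most copies than the other libraries, with values given below.

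The parents were among the most abundant mRNAs, with a median of 972 CPM over the 7 libraries and 36 of the 77 above 1000 CPM. Per kilobase of annotated exons, counted as the union of all exons of a gene, the highest mean levels were those of Rplp1, a protein of the ribosomal stalk, at 3047 CPM per kb, and of Rpl4 and Rps2, at 1627 and 1463 CPM per kb. The lowest were Rpl24 at 2.89, Rps10 at 4.71 and Rpl13a at 35.1 CPM per kb. Per kilobase of 1 annotated mRNA of each gene, Rplp1 was again the highest and these 3 the lowest, whereas Rps2 and Rpl8 came next after Rplp1, at 2447 and 2317 CPM per kb. The 3 lowest genes share annotated sequence with others. Exons of another annotated gene covered 47.0% of the exon bases of Rpl24 (Gm28037), 28.7% of those of Rps10 (RPS10-NUDT3 and Gm15420) and 35.4% of those of Rpl13a (Gm45713 and small RNA genes). Gm28037, RPS10-NUDT3 and Gm45713 themselves were at 0 counts in every library. Of all 150-base windows along the mRNA, 72.5% for Rpl24, 62.6% for Rps10 and 52.7% for Rpl13a also occurred in transcripts of another gene, against a median of 27.2% over the 77 parents. Levels of other parents with much overlap varied, as examples chosen after their values were seen show. Exons of other genes covered 66.2% of the exon bases of Rpl35 and 62.3% of those of Rpl23a, at means of 236 and 238 CPM. Of the windows, 97.96% for Rps27 and 90.9% for Rpl10 occurred in another gene, at means of 429 and 1184 CPM. The means of Rpl35, Rpl23a and Rps27 were below the parents' median of 972 CPM. The part of these overlaps in the low counts was not tested.

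Most copies had few counts. Of the 299 copies, 64 were at 0 counts in every library, 134 had under 10 counts in every library, and 44 had at least 100 counts in every library. The level went with sequence likeness to the parent. Among 282 copies that aligned to at least 80% of the parent's coding sequence, none of the 56 under 90% identity and none of the 57 between 90% and 95% reached 100 counts in every library. Between 95% and 98% identity, 2 of 69 copies did, between 98% and 99%, 13 of 41 (31.7%), and at 99% or more, 29 of 59 (49.2%). The median level was 0 CPM in the lowest of these classes and 4.81 CPM in the highest. Reads of a near-identical parent could add to these counts, which was not tested.

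In most families the copies took a small share of the summed counts of parent and copies, with a median of 1.19% over the 60 families. Mean shares of 10% or more were found in 4 families. Rps10 had the highest share. Its 4 copies held 73.8%, 74.2% and 77.8% of the family's counts in M colonies, 74.0%, 75.8% and 71.6% in GC colonies and 80.2% in ESC. The other families were Rpl34, Rps3a and Rps13, of which Rps13 ran from 10.85% to 12.01% over the 7 libraries. Below them came Rpl3, Rps15a, Rpl38, Rps6, Rpl36a and Rpl23a, with mean shares between 4.98% and 9.98%.

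The first comparison asked whether iPSC colonies from Myc-GFP GC B cells differ from those of bulk GC B cells. Of the 392 members, 230 passed the filter on low counts, and 6 of these (2.61%) passed an edgeR adjusted p of 0.05, against 3.97% of all 18166 genes tested. All 6 belonged to 3 families. Rps3a3, Rps3a2 and Rpl34-ps1 fell in M colonies, and Rps3a1, Rpl34 and Rpl30 rose. Over all genes tested, 1.7% rose and 2.27% fell.

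Rps3a1 was at 1679, 1655 and 1579 CPM in M colonies 1 to 3, against 1078, 1028 and 1044 CPM in GC colonies 1 to 3, and at 1208 CPM in ESC. Every M colony thus lay above every GC colony and the ESC library, which lay above the GC colonies. The parent rose by 0.64 ± 0.05 (SE) on the log2 scale (edgeR adjusted p = 1.49e-05).

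Rps3a3 went the other way. It was at 22.4, 17.2 and 14.95 CPM in M colonies, against 316, 294 and 293 CPM in GC colonies, and at 352 CPM in ESC. The M colonies were low and the GC colonies and ESC high, with no overlap. The log2 change was -4.05 ± 0.12 (edgeR adjusted p = 8.57e-10). Rps3a3 was the copy with the largest fall in an earlier description of these data, so its call is no independent evidence.

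Rps3a2 moved with Rps3a3. It was at 24.4, 16.8 and 21.3 CPM in M colonies, against 109, 111 and 92.8 CPM in GC colonies, and at 119 CPM in ESC. The groups again did not overlap, and ESC lay with the GC colonies. The log2 change was -2.32 ± 0.12 (edgeR adjusted p = 4.24e-07). Without M colonies 2 and 3 the log2 changes were -3.75 for Rps3a3, -2.10 for Rps3a2 and 0.67 for Rps3a1, and all 3 had an edgeR adjusted p under 0.05. Only M colony 1 remains on the M side there, and its p assumes that an M colony varies like the 3 GC colonies, which alone give the residual spread.

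Together, the 2 copies made up 2.71%, 2.02% and 2.25% of the Rps3a family's counts in M colonies, against 28.3%, 28.2% and 27.0% in GC colonies and 28.1% in ESC. The copies averaged 39.0 ± 6.77 CPM in M colonies and 405 ± 19.6 CPM in GC colonies (SD, n = 3 each), a difference of -366 CPM. The parent averaged 1638 ± 52.0 CPM in M colonies and 1050 ± 25.3 CPM in GC colonies, a difference of 587 CPM. Opposite changes in the parent and the copies thus left a smaller difference in their sum. The sum was 1726, 1689 and 1615 CPM in M colonies, 1503, 1433 and 1430 CPM in GC colonies and 1679 CPM in ESC.

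The Rps3a sum rose by 0.20 ± 0.05 on the log2 scale (edgeR adjusted p = 0.0393), a smaller change than that of either part. This call was lost in 5 of the 6 fits that left out 1 colony, with edgeR adjusted p up to 0.245. Copies without a ribosomal protein name that were found by sequence added 12.5 to 17.0 CPM in M colonies, 8.44 to 18.4 CPM in GC colonies and 18.7 CPM in ESC. Pde4d, the host of Rps3a3, was at 15.8, 14.8 and 15.7 CPM in M colonies, against 11.7, 11.6 and 12.3 CPM in GC colonies, and at 21.8 CPM in ESC. Pde4d encodes a cAMP phosphodiesterase, and it did not pass the test (log2 change 0.38, edgeR adjusted p = 0.0763).

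**Figure D1:**
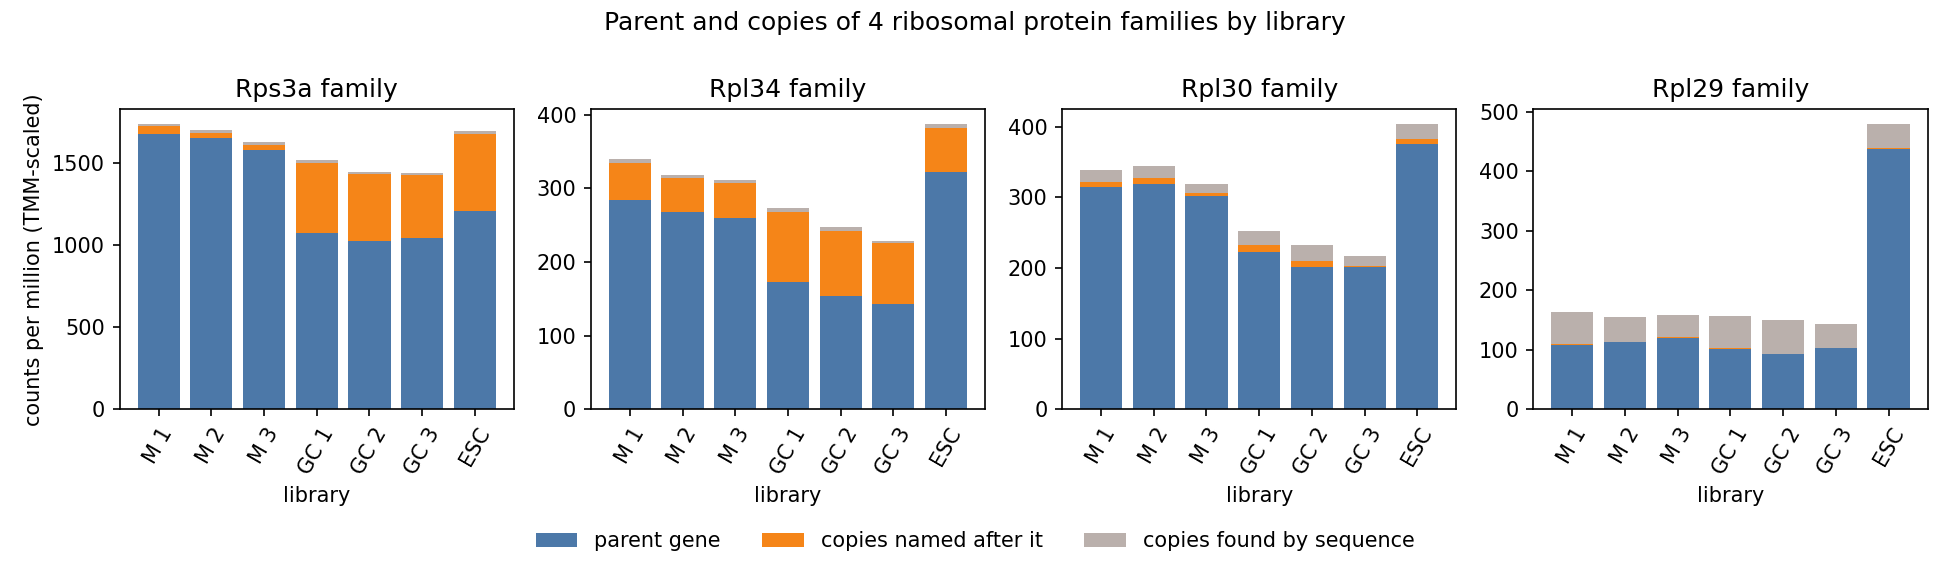
Stacked bars give the TMM-scaled CPM of the parent gene, of the copies that carry its name and of other copies found by sequence, for the Rps3a, Rpl34, Rpl30 and Rpl29 families in each of the 7 libraries. Copies of Rps3a took 2.02% to 2.71% of the named counts in M colonies, 27.0% to 28.3% in GC colonies and 28.1% in ESC, and Rpl29 stood at 438 CPM in ESC, above every colony.

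The Rpl34 family also showed opposite changes of parent and copy between the M and GC colonies, with ESC placed differently. Rpl34 was at 285, 268 and 260 CPM in M colonies, against 172, 154 and 144 CPM in GC colonies, and at 322 CPM in ESC. The parent rose by 0.79 ± 0.07 on the log2 scale (edgeR adjusted p = 7.2e-05). Rpl34-ps1 was at 49.98, 45.8 and 47.3 CPM in M colonies, against 95.1, 87.3 and 82.1 CPM in GC colonies, and at 59.1 CPM in ESC. Its log2 change was -0.89 ± 0.08 (edgeR adjusted p = 3.69e-05). Neither gene overlapped between the colony groups, and for both it was the M colonies that lay nearer to ESC.

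The copies held 14.99%, 14.6% and 15.4% of the Rpl34 family's counts in M colonies, against 35.6%, 36.3% and 36.4% in GC colonies and 15.6% in ESC. ESC was thus close to the M colonies for the Rpl34 family, and close to the GC colonies for the Rps3a family. The Rpl34 sum was 335, 314 and 307 CPM in M colonies, against 268, 242 and 226 CPM in GC colonies, and 382 CPM in ESC. It rose by 0.38 ± 0.07 on the log2 scale (edgeR adjusted p = 0.009), and the adjusted p was 0.0507 without M colonies 2 and 3, and 0.0686 when GC colony 2 was left out.

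Rpl30, a large-subunit protein gene, rose without a matching fall in its copies. It was at 314, 319 and 301 CPM in M colonies, against 223, 201 and 201 CPM in GC colonies, and at 375 CPM in ESC. The groups did not overlap, and the change was 0.58 ± 0.06 on the log2 scale (edgeR adjusted p = 2.45e-04). Its 9 named copies summed to 4.53 to 8.41 CPM in M colonies, 2.29 to 9.23 CPM in GC colonies and 7.34 CPM in ESC, with a log2 change of -0.01 that did not pass the test. The sum rose by 0.56 ± 0.06 (edgeR adjusted p = 3.84e-04).

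**Figure D2:**
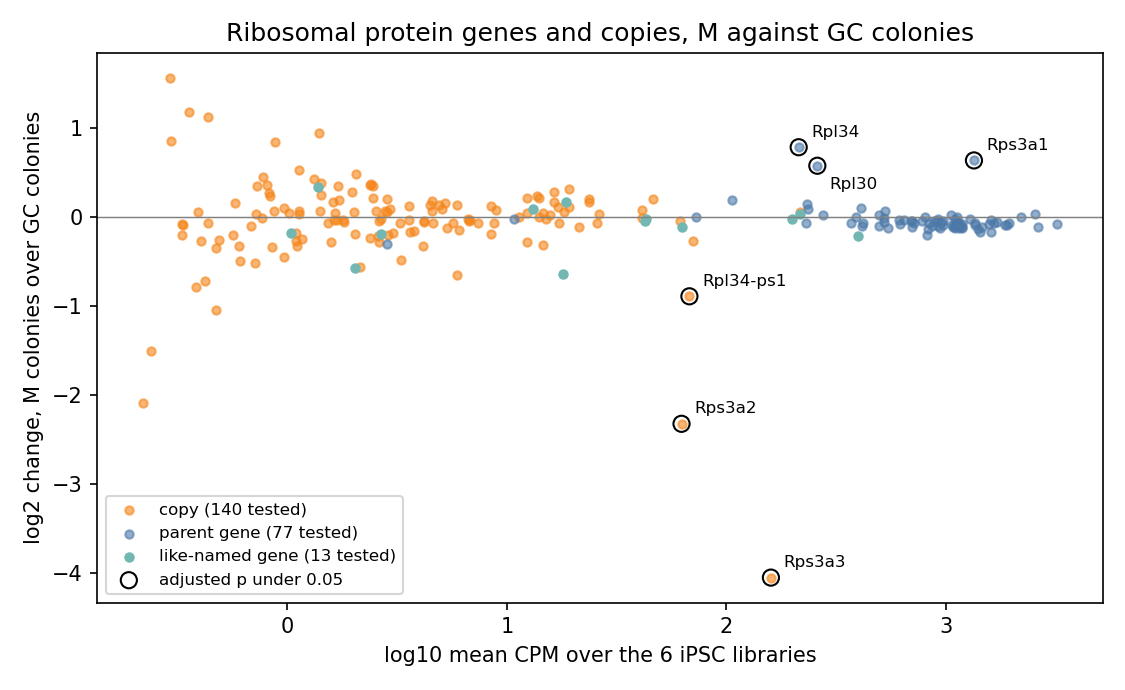
Each point is a member that passed the filter on low counts, with the log10 of its mean CPM over the 6 iPSC libraries on the x axis and its log2 change in M over GC colonies on the y axis. Circles mark the 6 members with an edgeR adjusted p under 0.05, from Rps3a3 at -4.05 to Rpl34 at 0.79.

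Among all 77 family sums, 3 rose (3.9%) and none fell, against 1.8% of all rows that rose in the table with family sums. These were Rpl30, Rpl34 and Rps3a. With the unnamed copies added, the same 3 sums rose, against 2.03% of rows, with log2 changes of 0.51, 0.37 and 0.20. When the copies of each family were summed apart from the parent, 2 of 52 tested copy sums fell and none rose, against 2.3% of rows that fell. These were the copies of Rps3a (log2 change -3.38 ± 0.11, edgeR adjusted p = 1.4e-09) and of Rpl34 (-0.89 ± 0.08, edgeR adjusted p = 3.84e-05).

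The other parents differed little between the colony groups. Of the 77, 61 had a log2 change below 0, with a median of -0.06, beside a median of 0.00 over all genes tested. This tilt was not stable to the choice of colonies, since without GC colony 1 the median was 0.00 and 38 of 77 were below 0. Without GC colony 3 the median was -0.10, 66 of 77 were below 0 and 4 parents fell, with no share over all genes taken for that fit. The copies other than those of Rps3a and Rpl34 had no call, and the 140 copies tested had 70 log2 changes below 0 and 70 above. None of the 13 like-named genes tested passed. Of these, Rpl39l, a paralogue of Rpl39 known for its expression in the testis, was at 22.2, 11.6 and 8.36 CPM in M colonies, against 21.9, 22.8 and 21.1 CPM in GC colonies, and at 11.6 CPM in ESC. M colony 1 was as high as the GC colonies, and the log2 change of -0.64 ± 0.25 had an edgeR adjusted p of 0.212. Without M colony 1 the log2 change was -1.13 ± 0.14 (edgeR adjusted p = 0.0012).

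Rps4l, the most abundant of the paralogues, averaged 369 ± 51.1 CPM in M colonies and 427 ± 45.5 CPM in GC colonies (SD, n = 3 each), with 459 CPM in ESC, and its groups overlapped. Rpl7l1, Rps27l and Rpl22l1, paralogues of Rpl7, Rps27 and Rpl22, averaged 220, 197 and 60.6 CPM in M colonies. In GC colonies they averaged 215, 200.3 and 65.4 CPM, and in ESC they were at 214, 213 and 77.2 CPM. Rpl37rt, Rpl6l, Rps27rt, Rpl32l, Rpl3l and Rpl36al had means of 1.11 to 45.1 CPM over the 7 libraries, and Rps4l-ps and Rps19bp1, a ribosomal protein S19-binding protein gene, had 1.43 and 42.6 CPM. The log2 changes of the 13 ran from -0.64 to 0.34 between M and GC colonies.

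Over all members, the share of counts on copies was 1.60%, 1.57% and 1.68% in M colonies, against 2.12%, 2.16% and 1.80% in GC colonies, and 2.00% in ESC. The M colonies lay below the GC colonies without overlap, by -0.41 percentage points, with an exact two-sided permutation p of 0.1, the smallest that 3 against 3 allows. Rps3a3 made up most of this difference. Without it the share was 1.59% ± 0.06 in M colonies and 1.66% ± 0.21 in GC colonies (SD, n = 3 each), the groups overlapped and the exact permutation p was 0.7.

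The abundant copies that are not of the Rps3a or Rpl34 family were more even. Rpl3-ps1, on the X chromosome, was the most abundant named copy, at 207, 212 and 247 CPM in M colonies, 212, 211 and 214 CPM in GC colonies and 174 CPM in ESC. Rps6-ps4 was at 71.9, 66.8 and 52.2 CPM in M colonies, 75.9, 81.3 and 72.8 CPM in GC colonies and 92.3 CPM in ESC. The M colonies were lower than the GC colonies for Rps6-ps4, but the log2 change of -0.27 ± 0.10 had an edgeR adjusted p of 0.191. Rps13-ps1, Rps16-ps2, Rpl10a-ps1, Rpsa-ps10 and Rpl19-ps11 had means of 26.8 to 63.1 CPM over the 7 libraries and no call in either comparison.

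Among these copies, GC colony 3 stood apart. In 117 copies with a mean of at least 20 counts, without Rps3a2, Rps3a3 and Rpl34-ps1, GC colony 3 was the lowest of the 7 libraries for 89. Its median was 0.67 below the copies' own medians on the scale of log2(CPM + 0.5), and it was the highest for 0 copies. ESC was the highest library for 59 of them, with a median of 0.22 above. Rpl10a-ps1 shows the pattern, at 40.9, 37.5 and 48.8 CPM in M colonies, 47.1, 46.3 and 27.0 CPM in GC colonies and 52.9 CPM in ESC. How often each library was lowest or highest was not counted for the parents or all genes, so the pattern need not be particular to copies. The parents took 7.30% of the counts in GC colony 3. They took 8.35% and 7.79% in GC colonies 1 and 2, and 7.23% to 7.66% in M colonies. Without GC colony 3, 10 members passed between M and GC colonies in place of 6, among them the same 6. The other 4 were parents that fell in M colonies. They include Rpl12, Rps4x and Rps27a, with log2 changes from -0.22 to -0.18 in that fit and no call with all 6 colonies. The share of all genes that passed in that fit was not taken, so the added calls need not be particular to the members.

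**Figure D3:**
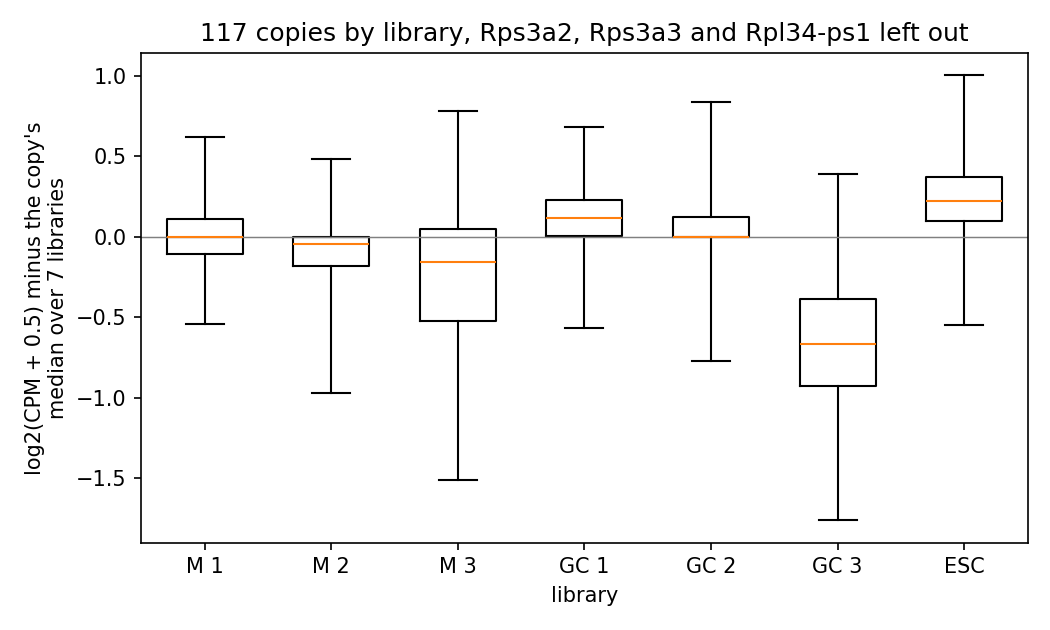
For each of the 7 libraries, the box gives the quartiles and the line the median, over 117 copies, of log2(CPM + 0.5) minus the copy's median over the 7 libraries, and whiskers reach the lowest and highest copy. GC colony 3 has a median of -0.67, and ESC has the highest median, 0.22.

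Some copies without a ribosomal protein name, found by at least 90% identity over at least 80% of a parent's coding sequence, also differed by colony. There were 727 of these, related to 69 of the families, and 12 reached 50 CPM in a library, beside 9 named copies. Gm2000, related to Rpl35, was at 145, 143 and 45.4 CPM in M colonies, 154, 157 and 124 CPM in GC colonies and 167 CPM in ESC. M colony 3 stood apart as low for Gm2000, and it was the highest for Rpl35, at 229, 230 and 278 CPM in M colonies, 244, 219 and 198 CPM in GC colonies and 254 CPM in ESC. Gm10036, related to Rpl11, was at 99.9, 59.3 and 47.0 CPM in M colonies, 76.7, 60.3 and 45.2 CPM in GC colonies and 71.4 CPM in ESC, and was thus highest in M colony 1. These were chosen after their values were seen, and Gm8730, related to Rplp0, was the most abundant of the 12, at 357 to 441 CPM over the 7 libraries.

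Rps3a3 was 1 of 17 copies at 10 CPM or more in a library that overlap another annotated gene. The hosts of the others include Ddah1 for Rpl36a-ps2, Nudcd3 for Rps15a-ps6, Tecpr2 for Rps19-ps6 and Sumf1 for Rpl36-ps12, all on the copy's own strand. Hosts on the opposite strand include Wwp2 for Rps26-ps1, Tcf12 for Rpl15-ps2, Zranb3 for Rpl28-ps1, Pdzd8 for Rps12-ps3 and Trpm4 for Rpl14-ps1. None of the hosts tested passed between M and GC colonies, with log2 changes from -1.22 to 0.38. Whether the authors counted by strand is not stated, and counts of a copy and its host on either strand may not be separate.

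The second comparison set the 6 iPSC colonies against the ESC library, with the mean of the M and GC groups on the iPSC side. The 2 comparisons share the 6 colonies, and the lone ESC library adds nothing to the estimate of spread. Of 252 members tested, 50 (19.8%) passed an edgeR adjusted p of 0.05, against 16.3% of 20502 genes, and 49 of the 50 were lower in the iPSC colonies. The calls were mostly parents. Of 162 copies tested, 5 passed, but 135 had a log2 change below 0, with a median of -0.36. Over all 20502 genes, 9939 were below 0. Of the 77 parents, 45 (58.4%) fell in the colonies and none rose, against 7.56% of all genes that fell and 8.76% that rose. The fall covered both subunits, with 16 of 31 small-subunit and 29 of 46 large-subunit genes.

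Parents were modestly lower in the colonies. Their median log2 change was -0.27, beside 0.02 over all genes tested, and 76 of 77 were below 0. Of the 45 called, 39 lay between -0.45 and -0.15. In 70 of the 77 the ESC library was above every colony, a count that was not taken over all genes for comparison. Among 455 other genes with a mean of at least 300 CPM, 94 fell and 52 rose, with a median of -0.07. In bulk RNA, fewer cells of a type and less RNA per cell cannot be told apart. The fibroblast marker sum was higher and the pluripotency marker sum lower in every colony than in ESC. Of 13 tested fibroblast markers, 6 were up and 0 down, and of 15 pluripotency markers, 11 were down and 1 up. The part of these markers in the lower levels of the parents was not tested. The count of called parents was 24 without M colony 3 and 26 without GC colony 2, with no share over all genes taken for those fits. The parents' median log2 change stayed between -0.30 and -0.24 in every setting run, and was -0.25 without M colonies 2 and 3.

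**Figure D4:**
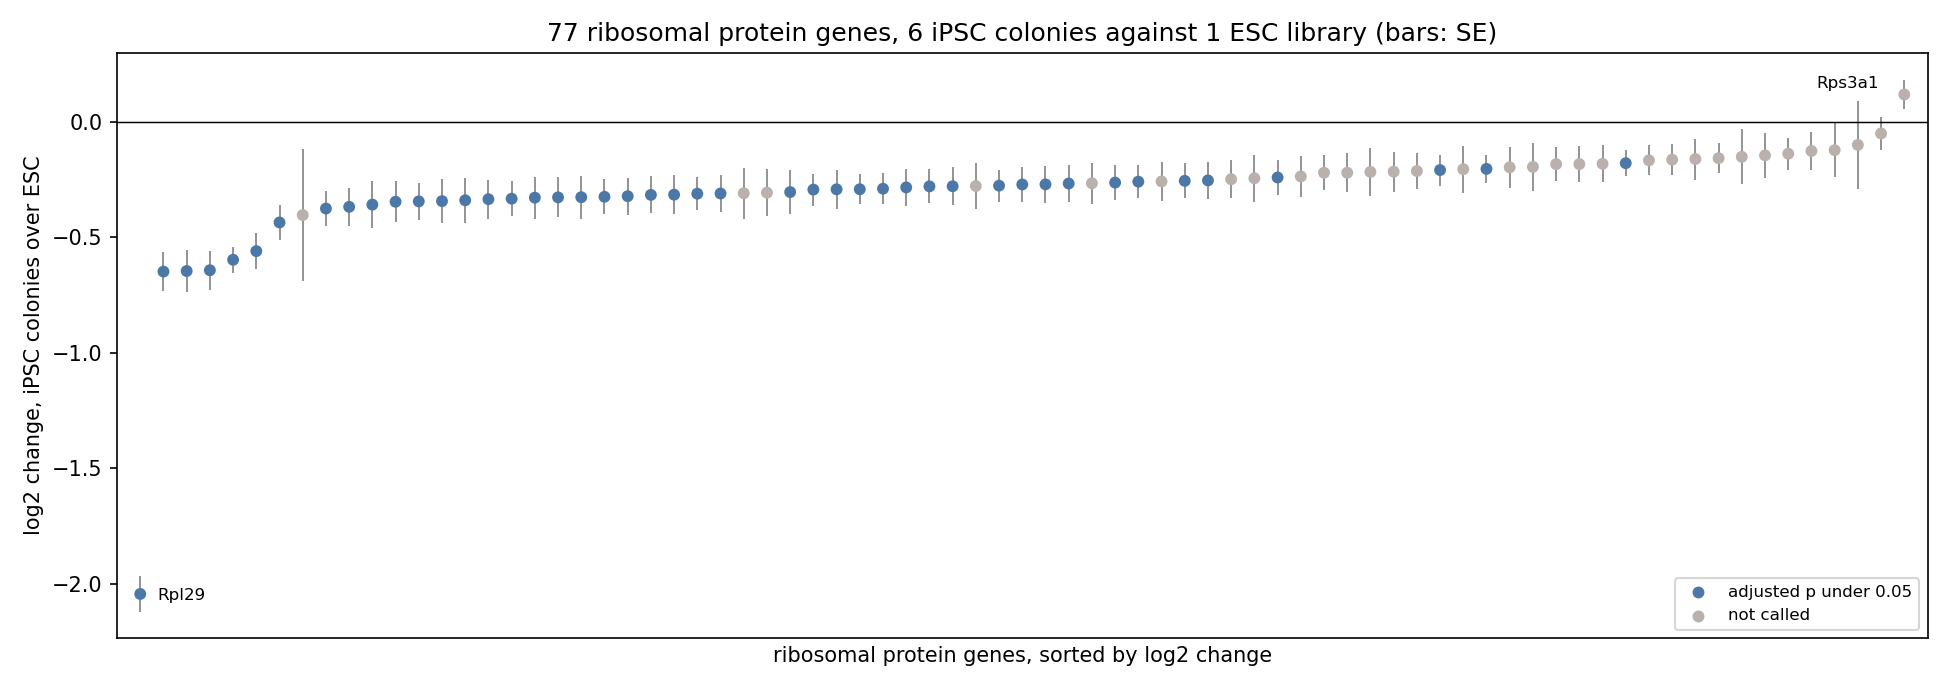
Points give the log2 change of the 77 parents in the 6 iPSC colonies over the ESC library, sorted, and bars give the SE. Rpl29 stands at -2.04, the 45 genes with an edgeR adjusted p under 0.05 are all below 0, and Rps3a1 is the single parent above 0, at 0.12.

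Rpl29 differed by far more than any other parent. The gene encodes a small protein of the large subunit. It was at 109, 113 and 120 CPM in M colonies, 102, 92.7 and 103 CPM in GC colonies and 438 CPM in ESC. The 6 colonies were close to each other, with a mean of 107 ± 9.59 CPM (SD, n = 6), and far below ESC. The log2 change was -2.04 ± 0.08 (edgeR adjusted p = 5.6e-09), and between M and GC colonies it was 0.20 ± 0.07 (edgeR adjusted p = 0.16).

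Rpl29 had 3 named copies, which summed to at most 0.67 CPM in a library, and 57 copies found by sequence. These 57 summed to 37.5 to 55.3 CPM in M colonies, 40.0 to 57.6 CPM in GC colonies and 41.5 CPM in ESC. With them added, the family was at 164, 155 and 158 CPM in M colonies, 157, 151 and 143 CPM in GC colonies and 480 CPM in ESC. The log2 change of that sum was -1.63 ± 0.07 (edgeR adjusted p = 1.05e-08).

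After Rpl29, large falls among the parents included those of Rpl34 (-0.65 ± 0.09), Rpl13 (-0.64 ± 0.08), Rpl3 (-0.60 ± 0.06), Rpl30 (-0.56 ± 0.08) and Rps2 (-0.44 ± 0.07), all on the log2 scale. Rpl3, whose protein reaches towards the peptidyl transferase centre, was at 1796, 1821 and 1809 CPM in M colonies, 1970, 1902 and 1874 CPM in GC colonies and 2816 CPM in ESC. The colonies were even and all below ESC. Its copy Rpl3-ps1 was the single member that rose, by 0.32 ± 0.10 (edgeR adjusted p = 0.0399), and this call was lost when M colonies 2 and 3 (0.0674) or GC colony 2 (0.0791) were left out.

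Rpl13 lies on chromosome 8. It averaged 1568 ± 122 CPM in the colonies (SD, n = 6), against 2447 CPM in ESC. The 1027 other genes tested on chromosome 8 had a median log2 change of -0.25, whereas the medians of the other chromosomes ran from -0.05 to 0.19. The part of this chromosome-wide difference in the change of Rpl13 was not tested.

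Further parents that fell include Rpl12, of the stalk base, at -0.38 ± 0.08, the stalk gene Rplp1 at -0.36 ± 0.10 and Rpl32 at -0.35 ± 0.09. The abundant Rpl4 and Rpsa were also lower, at -0.18 ± 0.06 and -0.33 ± 0.08. Rplp1 and Rpl32 lost their calls without M colonies 2 and 3, with edgeR adjusted p of 0.109 and 0.0544. Rplp1 also lost its call without M colony 3 (0.0578) and without GC colony 2 (0.0505). Rplp0, the core protein of the stalk, was among the parents with no call, at 2190 ± 103 CPM in the colonies and 2267 CPM in ESC, a log2 change of -0.05 ± 0.07.

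For genes that also differ between M and GC colonies, the mean over colonies hides 2 levels. Rps3a3 fell by 2.25 on the log2 scale and Rps3a2 by 1.35 in the colonies relative to ESC, but for Rps3a3 the M colonies lay at 14.95 to 22.4 CPM and the GC colonies at 293 to 316 CPM, nearer to the 352 CPM of ESC. The Rps3a copies summed fell by 1.91 ± 0.11. The Rps3a sum itself had a log2 change of -0.10 ± 0.06 (edgeR adjusted p = 0.311). Likewise Rpl34 and Rpl30 were nearer to ESC in the M colonies than in the GC colonies.

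Another 2 copies also fell in the colonies. Rps10-ps2 was at 18.4, 19.2 and 22.7 CPM in M colonies, 20.5, 20.2 and 14.7 CPM in GC colonies and 31.2 CPM in ESC, with a log2 change of -0.70 ± 0.17 (edgeR adjusted p = 0.0126). Rpl13-ps3 was at 2.14, 2.57 and 1.01 CPM in M colonies, 2.11, 1.71 and 0.66 CPM in GC colonies and 4.72 CPM in ESC, with a log2 change of -1.48 ± 0.46 (edgeR adjusted p = 0.043). The Rpl13-ps3 call was lost in 3 of the 6 fits that left out 1 colony. None of the 13 like-named genes tested passed.

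Sums gave the same picture for the families. Of 77 family sums, 45 fell and none rose, against 7.69% of all rows that fell, and all 77 had a log2 change below 0. With the unnamed copies added, 44 of 77 fell, against 8.03% of rows. Of 54 tested sums of copies alone, 2 fell, those of Rps3a and Rps10, against 7.67% of rows. Of the 54, 48 had a log2 change below 0, against 9885 of 20394 rows, with a median of -0.39. The Rps10 copies fell by 0.56 ± 0.18 (edgeR adjusted p = 0.0499), a call that 6 of 12 alternatives lost.

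Other genes of translation were read from the same fits. Of 24 translation genes outside the set, all 24 passed the filter and none passed between M and GC colonies by edgeR, where 5 had an unadjusted p under 0.05. Between the colonies and ESC, 5 of the 24 fell and none rose, against 7.56% of all genes that fell and 94 of the 455 abundant genes given above, a share close to that of the list. The 5 include Rack1, a scaffold protein on the small subunit (-0.30 ± 0.07), the elongation factor genes Eef1a1 (-0.35 ± 0.04) and Eef2 (-0.17 ± 0.05), and the helicase gene Eif4a2 (-0.45 ± 0.08). Eef1a1 was at 11119, 11166 and 11059 CPM in M colonies, 12024, 12002 and 12010 CPM in GC colonies and 14682 CPM in ESC. All colonies were thus below ESC. Others of the list, such as Tpt1 and Npm1, had log2 changes of -0.01 and -0.07 and no call.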

How the data were processed

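RNA-seq of 7 mouse cultures was analysed from the raw counts per Ensembl gene that the authors deposited, which are whole numbers with no normalization applied. As recorded per the submitters' processing notes, STAR 2.7.10a, featureCounts 2.0.6, DESeq2 and the builds mm10 and GRCm38 were used. The treatment of strand and of reads with several matches is not stated there. The labels disagree on the kit and sequencer: the design text names non-stranded poly-A libraries, and the sample protocol a directional kit. Among counts of 1 to 49, 68.5% to 72.2% were even in each library, so counts may not be independent fragments. No column of per-sample values was left unused.

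Names, positions and transcripts came from GENCODE release M21 on GRCm38, which matched 54809 of 54838 rows. Genes were filtered with filterByExpr, scaled by TMM and tested with edgeR 4.0.16 in R 4.3.3 (quasi-likelihood F test, two-sided), with Benjamini-Hochberg adjustment over all rows and a threshold of 0.05. The M and GC colonies were compared in a fit of 6 libraries, and iPSC with ESC in a fit of 7, where the lone ESC library was assumed to vary like the colonies. Each SE was taken as the absolute log2 change divided by the root of F. CPM values are scaled over 7 libraries. For family sums, the rows of a family were replaced by their sum in the whole table before fitting, and copies alone were summed likewise. The share of copies was compared by an exact permutation test. Copies were aligned to the parent's coding sequence with BLAST+ 2.17.0+, and unnamed copies needed 90% identity over 80% of it. The fits were tested on simulated data. Figures were drawn with matplotlib 3.10.9.

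Members, lists, tests and alternatives were chosen with earlier results of these data known. The named genes were members past the threshold (up to 15 per direction), family sums past it (up to 10), the 10 most abundant copies, the 10 families with the highest copy share, the 3 highest and 3 lowest parents, like-named genes that passed the filter, the Rps3a and Rpl34 families, translation genes past the threshold and hosts of copies at 10 CPM or more. DESeq2 1.42.0, limma-voom 3.58.1, other scalings, no filter, a replicate block and leaving out colonies were alternatives, and the sums with unnamed copies were added after seeing the data. Some genes that this rule names are not reported here.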

Additional observations from a re-analysis of the deposited data

How the results depend on the processing

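The 6 members called between M and GC colonies stayed called, in the same direction, under DESeq2, limma-voom, scaling from non-members, upper-quartile scaling, no filter on low counts, each colony left out, M colonies 2 and 3 left out and the replicate block. Leaving out M colonies 2 and 3 leaves 1 M library, so the p in that fit rests on the spread of the GC colonies. The number of called members was 12 without the filter and 6 to 10 with 1 colony left out. The 3 family sums became 1 to 7 with 1 colony left out and 1 without M colonies 2 and 3; the Rps3a sum also lost its call under upper-quartile scaling (adjusted p = 0.0688). The copy share differed by -0.53 to -0.35 percentage points with 1 colony left out and by -0.07 without Rps3a3. Between iPSC colonies and ESC, the 50 members became 78 without the filter, 29 to 61 with 1 colony left out and 18 without M colonies 2 and 3. The 45 family sums became 21 to 57 and 17 in these last settings. The 2 copy sums became 4 with DESeq2, 1 with scaling from non-members, 19 without the filter, 1 to 7 with 1 colony left out and 1 without M colonies 2 and 3. The 5 translation genes became 4 to 8 with 1 colony left out and 3 without M colonies 2 and 3. Fewer samples were used in the settings that left out colonies, and for the others the cause was not tested. The share of all genes that passed was not taken in these settings, the replicate block among them. The changes in number thus need not be particular to the members. No result reversed. Deviations of same-numbered M and GC colonies correlated by 0.07, 0.07 and 0.16, so the numbers were not taken to pair samples, although each colony correlated best with its own number. With the replicate block, 9 members, 4 family sums, 2 copy sums and 0 translation genes passed; the added members include Rps4l and Rpl39l. For a member at 0 counts, the limit of 3 counts came to 0.0840 to 0.0963 CPM depending on the library, for counting error only.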
